A study of Mus musculus with 15 samples.

Results

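The 8 genes described here were grouped as signalling and adhesion genes, a name that Reep3, a protein of the endoplasmic reticulum, does not match. They are Reep3, Lpp, Cyth4, Emp1, Enpp6, Itpkb, Plxna1 and Tgm2. The genes were chosen because many binding sites of the nuclear receptors RevErbalpha and RevErbbeta had been assigned to each of them. They held 36 of the 1544 sites that the authors listed as common to both proteins: 6 each at Reep3 and Lpp, and 4 at each of the other genes. The number of sites chose the genes and is no result. The members were picked by name, and 7 other genes also had 4 or more sites (Spred1, Gm14005, Cited2, Elmo1, Irf2bp2, Irf2bpl and Lyn). Just below the members' lowest number of 4 were 53 genes with 3 sites each.

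RevErbs are heme-binding nuclear receptors that lack the activation helix of other family members, recruit the NCoR corepressor and repress transcription, and they form a negative arm of the circadian clock. They bind DNA as monomers at the nuclear receptor core motif AGGTCA with an A/T-rich flank, or as pairs on repeats of it. In macrophages many of their sites are distal enhancers, stretches of DNA that carry lineage factors such as PU.1 and that are themselves transcribed into short-lived enhancer RNA.

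The study measured binding in RAW cells, a mouse macrophage line, and nascent RNA in RAW cells and in mouse bone marrow derived macrophages, all with the label C57Bl6 as genetic background. Groups for binding were RAW cells expressing biotin-tagged RevErbalpha or RevErbbeta, pulled down with streptavidin, against control RAW cells labelled BirA, the biotin ligase. For 5'GRO-seq, which maps the capped 5' ends of nascent RNA, RAW cells with tagged RevErbalpha stood against control cells labelled BTEV-Ctrl. Whether these were the same tagged cells as for binding was not determined. Macrophages grown with M-CSF were read by GRO-seq, which maps engaged RNA polymerase. They were either DKO (Tie2-Cre together with RevErbalpha flox/flox and with RevErbbeta flox/flox) or WT. WT had the floxed alleles of both genes, RevErbalpha flox/flox and also RevErbbeta flox/flox, but no Cre. Tie2-Cre acts in endothelial as well as blood cells. The labels give no age or sex, and do not say how many animals or cell clones were used.

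With 1 sample in each group, differences between conditions stand without replicates, and no p-values were computed. Numbered runs of those samples are given where the table has them, namely 3 per RevErb for binding and 2 per genotype for whole genes. The column names do not say whether the runs are repeats of the same culture or separate cultures or animals. Treated libraries are listed in the header, with treatments named KLA and serum shock, and which runs they are, if any, is not clear from the column names. RevErb runs had 598490 to 5276592 tags, and RevErbbeta run 3 and RevErbalpha runs 2 and 3 each had under 1000000, which left a median of about 4.2, 4.35 and 3.8 tags at a site of the 8 genes. The 5'GRO-seq libraries had 7238710 tags for tagged RevErbalpha and 18708148 for control. For the targeted gene Nr1d1, which encodes RevErbalpha, the log2 gene signal was 9.44 and 9.56 in the runs labelled DKO, against 7.91 and 7.48 in the WT runs. That value is higher in the library labelled DKO; it covers the whole gene and is no check of the deletion, and the genotype is written as labelled. Csf1r, the M-CSF receptor and the single one of 8 macrophage markers in the table, read 12.6 in the library labelled DKO and 12.52 in WT; the table lists genes with a common site only, so markers of other cells could not be read.

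Cyth4 and Emp1 had a site within 250 bases of a gene start, at 73 and 124 bp, so their promoters are shown, from RefSeq on build GRCm38.p6, each from 250 bases before to 50 bases after a start and 5′ to 3′ on the plus strand. Capitals mark the matches to 5 motifs, each searched on both strands. For nuclear receptors the core AGGTCA was used. The same core with a leading T, which is TAGGTCA, overlaps with it. For PU.1-type ETS factors GAGGAAG was used. The AP-1 motif was TGANTCA. The E-box was CACGTG. RefSeq lists 2 starts for Emp1, and which of them the authors' start corresponds to was not determined, so both windows are given.
Cyth4, chr15:78596797-78597096: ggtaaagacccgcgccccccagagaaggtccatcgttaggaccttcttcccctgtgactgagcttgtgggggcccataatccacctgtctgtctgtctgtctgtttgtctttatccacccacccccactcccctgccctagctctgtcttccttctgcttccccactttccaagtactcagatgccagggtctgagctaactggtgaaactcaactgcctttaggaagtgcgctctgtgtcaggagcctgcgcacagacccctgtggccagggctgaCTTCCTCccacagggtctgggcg
Emp1, first start, chr6:135362681-135362980: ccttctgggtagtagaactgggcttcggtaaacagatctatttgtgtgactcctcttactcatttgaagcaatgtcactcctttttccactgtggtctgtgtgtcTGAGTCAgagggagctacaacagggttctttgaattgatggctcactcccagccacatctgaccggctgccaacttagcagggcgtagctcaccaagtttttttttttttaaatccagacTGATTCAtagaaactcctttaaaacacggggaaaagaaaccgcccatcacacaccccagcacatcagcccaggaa
Emp1, second start, chr6:135367243-135367542: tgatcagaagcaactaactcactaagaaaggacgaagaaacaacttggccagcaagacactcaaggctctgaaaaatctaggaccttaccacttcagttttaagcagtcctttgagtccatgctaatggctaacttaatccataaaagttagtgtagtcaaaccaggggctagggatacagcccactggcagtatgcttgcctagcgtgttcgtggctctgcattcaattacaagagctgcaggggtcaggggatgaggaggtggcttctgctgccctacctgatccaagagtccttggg
None of the 3 windows held AGGTCA, which is in 16.3% of the 32851 windows of this length. Nor did they hold its longer form TAGGTCA (2.61% of windows) or the E-box CACGTG (7.15%). The Cyth4 window held 1 GAGGAAG match on the minus strand, read as CTTCCTC and beginning at base 28 after the start, a motif that 13.6% of all windows hold. In the first Emp1 window TGANTCA matched at 145 and 25 bases before the start, and 7.81% of all windows hold that motif. The second Emp1 window held none of the 5. The sites themselves are on build mm9, for which no genome was used here, so their own sequences are not shown.

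Most sites lay far from the start of the gene they were assigned to. The median distance was 65979 bp over the 36 sites, against 22431 bp over all common sites. Of the 36, 22 lay beyond 50 kb, or 61.1% against 27.3%. Long distances were not particular to these genes. Sites of the other genes with 4 or more sites had a larger median of 91829 bp, with 67.6% beyond 50 kb. Those of genes with 3 sites had a median of 24894 bp, with 29.6% beyond 50 kb. These differences were not tested. The authors' class was enhancer-like, with high H3K4me1 and low H3K4me3, at 32 of the 36 sites, against 80.5% of all common sites; 18 of these were intergenic and 14 genic. The other 4 sites, where H3K4me3 exceeded H3K4me1, were 2 each at Cyth4 and Emp1. Genic is the authors' class and need not mean inside the assigned gene. The genic sites of Enpp6, Plxna1 and Cyth4 all lay upstream of the start used, and which transcript holds them was not determined. The authors assigned each site to the nearest expressed gene, and no site of another gene lay between the outermost sites of any of the 8.

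**Figure D1:**
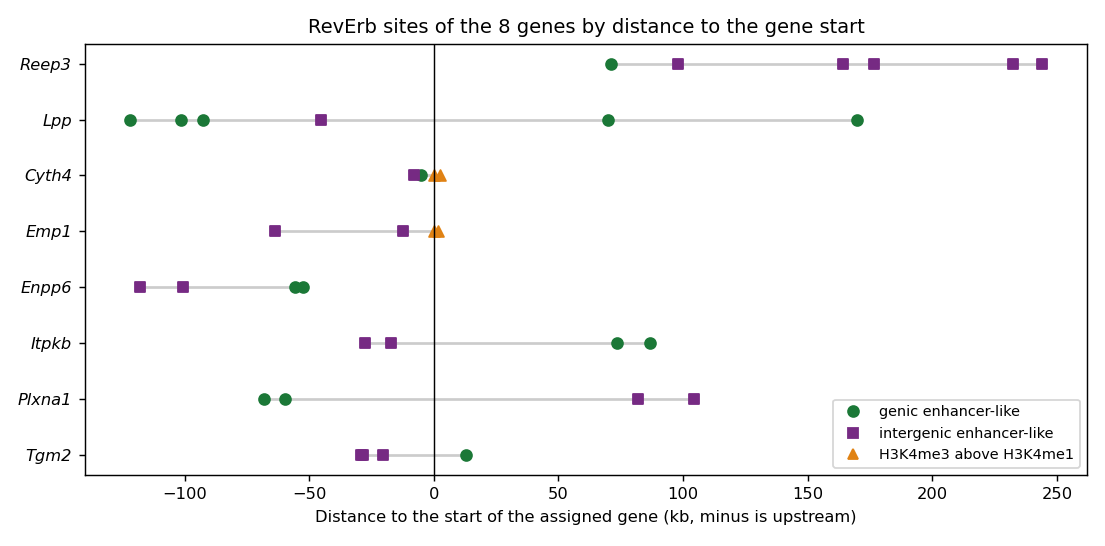
Position of each of the 36 sites relative to the start of its assigned gene, in kb with upstream negative, coloured by the authors' histone class. The sites of Lpp are measured from 3 different starts of that gene, so their order here is not their order along the chromosome. Cyth4 has all 4 sites within 7917 bp of its start, and the sites of Reep3 all lie downstream, up to 243945 bp away.

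The layouts differed from gene to gene. Cyth4, a cytohesin that loads GTP onto Arf GTPases in blood cells, had all 4 sites in 10392 bp of chromosome 15: at 7917 and 5114 bp upstream, at 73 bp downstream and at 2318 bp downstream. Emp1, a membrane protein of the PMP22 family, had sites at 63661, 12558 and 124 bp upstream and 1653 bp downstream. Lpp, a zyxin-family LIM protein of focal adhesions, was the most spread out, with 543657 bp on chromosome 16 between its outermost sites. Its sites were measured from different starts. Those at 121845, 101656 and 92465 bp upstream are upstream of the NM_001145954 start, a later start of the gene. They are genic and lie further along the chromosome than the site 69766 bp downstream of an earlier Lpp start. Reep3, a protein that shapes the endoplasmic reticulum, had all 6 sites downstream of its start, from 71133 to 243945 bp, 5 of them intergenic. Enpp6, a choline-specific phosphodiesterase, had all 4 upstream, from 52560 to 118089 bp, and the neighbouring protein-coding gene on that side in RefSeq is Irf2, to which no common site was assigned. Itpkb, a kinase that turns inositol trisphosphate into tetrakisphosphate, and Plxna1, a receptor for semaphorins, each had 2 sites upstream and 2 downstream. Tgm2, the tissue transglutaminase that cross-links proteins and takes part in the uptake of dying cells, had its closest pair of sites 947 bp apart, at 28261 and 29208 bp upstream.

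Binding at the sites of these genes was above the middle of the series, with a wide range between sites of the same gene. Values are log2 tags per 10000000 in 157 bp, averaged over the runs of each protein. The median was 6.23 for RevErbbeta and 5.87 for RevErbalpha at the 36 sites, against 5.68 for RevErbbeta and 5.45 for RevErbalpha at all common sites, while BirA had 1.12 at the 36 sites and 1.10 at all. The mean of both proteins exceeded the series' median at 26 of 36 sites (72.2%), where all common sites give 50.0% by construction, and with only the runs above 1000000 tags the count was 27. The sites were called for binding by both proteins, so the level is a description and was not tested.

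The strongest of the 36 was the Cyth4 site 5114 bp upstream (chromosome 15, 78422285 to 78422441), genic enhancer-like, which ranked 42 of 1544. It read 8.38, 8.07 and 8.39 in the RevErbbeta runs and 5.66, 7.99 and 7.87 in the RevErbalpha runs, against 1.13 for BirA. All RevErbbeta runs lay above all RevErbalpha runs there, and RevErbalpha run 1, the deepest of its protein, read lowest. With only the runs above 1000000 tags it was no longer the strongest of the 36. The other Cyth4 sites were far weaker, with means of both proteins of 4.91, 4.71 and 5.83, so the range within Cyth4 was 3.02, the widest of the 8 genes. Next in binding came the Reep3 site 232193 bp downstream (6.96) and the Enpp6 site 100560 bp upstream (6.88). The genic Lpp site 92465 bp upstream of the NM_001145954 start followed (6.87). Plxna1 had the narrowest range, from 5.59 to 6.14, and all 4 of its sites were above the series' median, as were all 6 of Reep3 and all 4 of Enpp6. Tgm2 had 1 of 4 above it and Lpp 3 of 6. BirA was highest, at 2.91, at the Reep3 site 232193 bp downstream, which equals the highest BirA value at any common site.

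**Figure D2:**
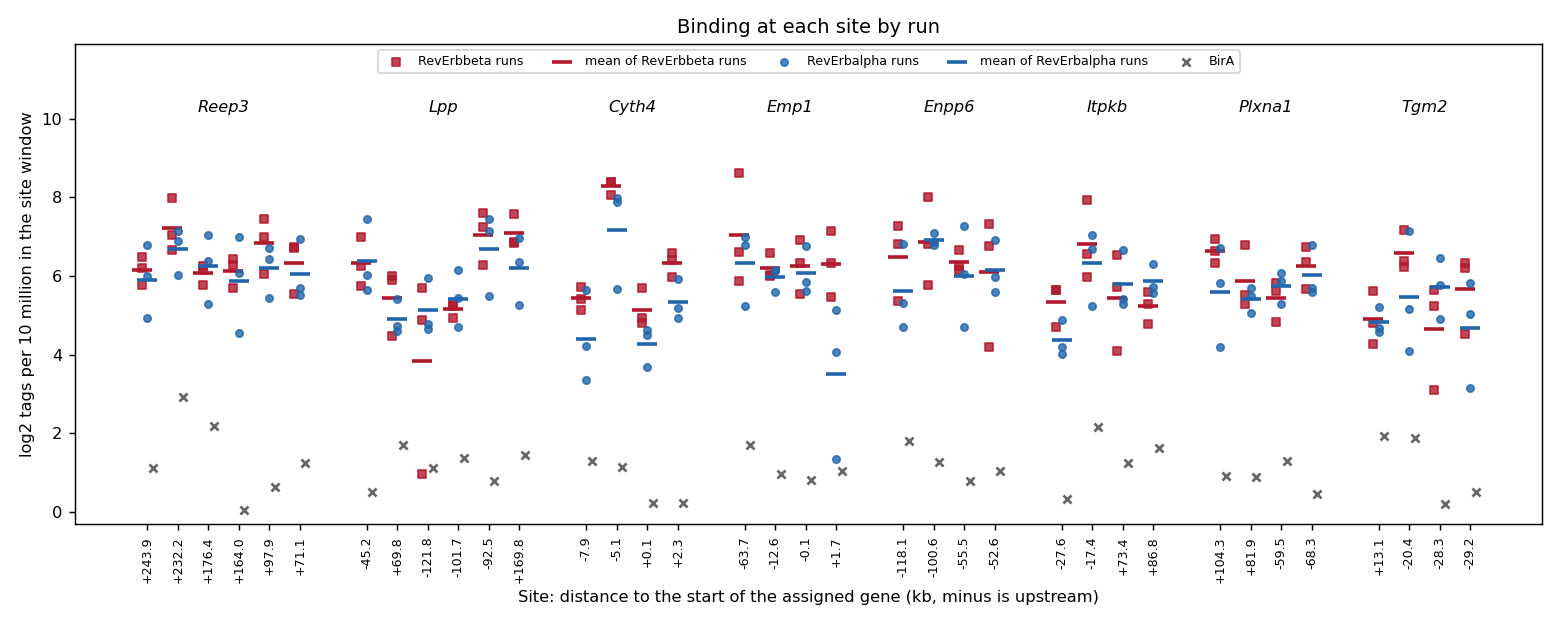
Binding in each run at the 36 sites (log2 tags per 10000000 in 157 bp), ordered along the chromosome within each gene; points are runs, short bars are means of 3 runs and crosses are BirA. BirA stays at or below 2.91, and 1 RevErbbeta run at Lpp and 1 RevErbalpha run at Emp1 drop into that range.

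RevErbbeta read higher than RevErbalpha at 26 of the 36 sites, against 66.1% of all common sites, and the median difference was 0.35 (0.29 over all common sites). It shrank to 0.05 without RevErbalpha run 1 and was 0.71 with only the runs above 1000000 tags, so its size depended on the runs used. All RevErbbeta runs lay above all RevErbalpha runs at 4 sites (11.1%), against 7.38% of all common sites, and the reverse held at 0 of 36, against 1.10%. Of those 4 sites 3 were at Cyth4, and the other was the Emp1 site 1653 bp downstream. At that Emp1 site the RevErbbeta runs read 6.32, 7.14 and 5.47, while the RevErbalpha runs read 5.13, 4.06 and 1.34, the last of them in the shallowest run. At the Lpp site 121845 bp upstream of the NM_001145954 start, the RevErbbeta runs read 4.87, 5.70 and 0.97. The RevErbalpha runs read 4.78, 5.94 and 4.66 there, so that 1 shallow RevErbbeta run set the RevErbbeta mean of 3.85. The strongest site for RevErbbeta was also the strongest for RevErbalpha in 5 of the 8 genes, the exceptions being Lpp, Plxna1 and Tgm2, and across the 36 sites, which share their libraries, the proteins' values had a Spearman correlation of 0.70.

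The next comparison was of RAW cells with tagged RevErbalpha against control cells by 5'GRO-seq, in log2 tags per 10000000 in 500 bp around each site. Sites of Enpp6 had less signal with tagged RevErbalpha and sites of Emp1 more, while the 36 sites as a set had a median close to that of the series. The median difference was -0.26 over the 36 sites and -0.23 over all common sites, so the second value is the shift of the whole series against which single sites stand. Signal was lower by 1 or more with tagged RevErbalpha at 4 of the 36 sites, against 20.0% of all common sites, and higher by 1 or more at 2, against 4.92%. It was lower by any amount at 23, which is 63.9% beside 62.6% of all, and higher at 13, beside 36.8% of all. At a threshold of 0.5 it was lower at 12, beside 36.3% of all, and higher at 4, beside 14.4%. Across the 36 sites the difference did not follow binding (Spearman correlation -0.03), whereas over all 1544 sites the correlation was -0.24. For scale, the site at the start of Nr1d1 read 3.44 with tagged RevErbalpha and 7.97 in control cells.

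**Figure D3:**
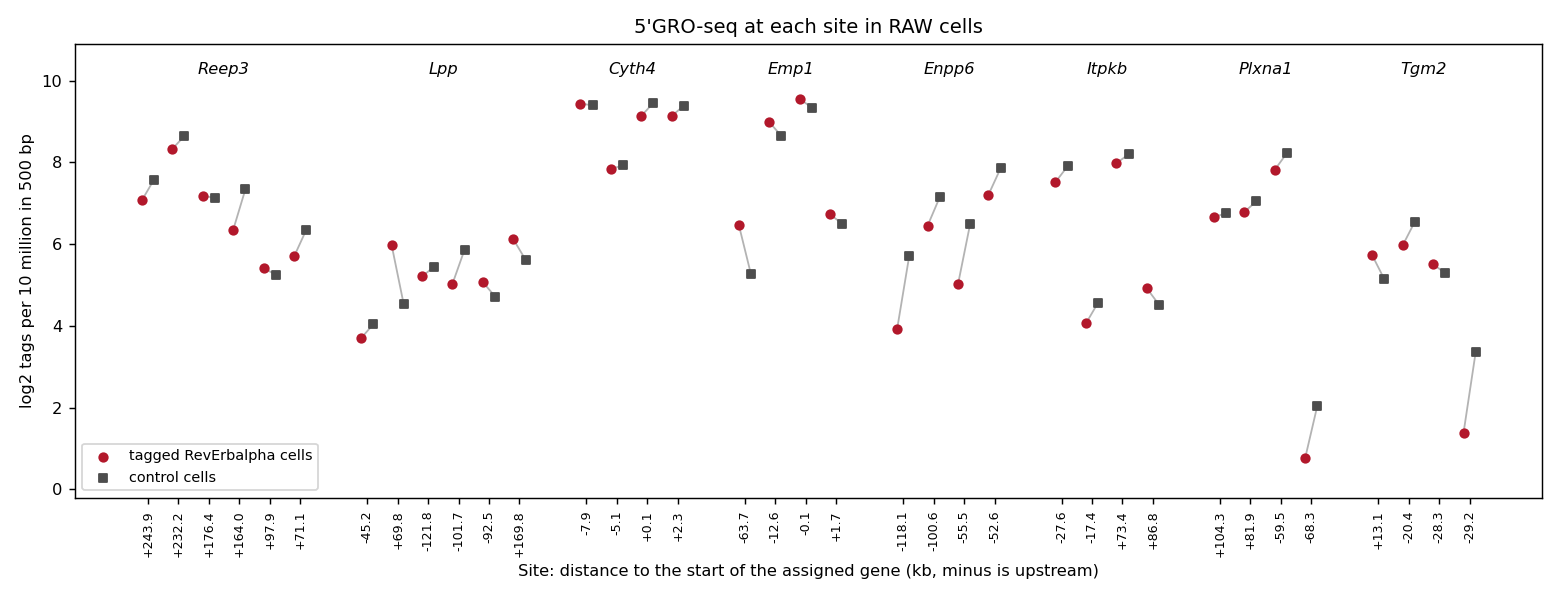
5'GRO-seq at the 36 sites (log2 tags per 10000000 in 500 bp) in RAW cells with tagged RevErbalpha (circles, left of each pair) and control RAW cells (squares), joined by a line; each is 1 library. All 4 Enpp6 pairs are lower with tagged RevErbalpha and all 4 Emp1 pairs are higher.

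All sites of Enpp6 were lower and all sites of Emp1 higher with tagged RevErbalpha, before and after the shift of the whole series was taken off. At Enpp6 the 4 sites, from the farthest upstream to the nearest, read 3.92, 6.45, 5.02 and 7.21 with tagged RevErbalpha, against 5.72, 7.15, 6.50 and 7.86 in control cells. Every site was lower with tagged RevErbalpha, by -1.80, -0.70, -1.48 and -0.65. The largest of these was at 118089 bp upstream (chromosome 8, 47954112 to 47954268), where about 10.2 tags with tagged RevErbalpha stood against 96.7 in the deeper control library, and the other change past 1 was at 55540 bp upstream (chromosome 8, 48016661 to 48016817), with about 22.8 against 167.5 tags. At Emp1, in the same order, the sites read 6.48, 8.99, 9.56 and 6.73 with tagged RevErbalpha, against 5.27, 8.65, 9.34 and 6.50 in control cells. All 4 were higher, by 1.21, 0.34, 0.22 and 0.23, and the first of them, 63661 bp upstream (chromosome 6, 135249210 to 135249366), was past the threshold.

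Plxna1 also had all 4 sites lower with tagged RevErbalpha, but by less, and 1 of the 4 turned higher once the shift of the whole series was taken off. Its sites, from the farthest downstream to the farthest upstream, read 6.66, 6.79, 7.82 and 0.77 with tagged RevErbalpha, against 6.76, 7.05, 8.23 and 2.05 in control cells. The differences were -0.10, -0.26, -0.41 and -1.28, and the last, at 68296 bp upstream (chromosome 6, 89380825 to 89380981), rested on about 0.5 tags with tagged RevErbalpha and 5.9 in control cells. Adding 10 rather than 1 before the logarithm made that difference -0.30. Genes with every site lower were 2 of these 8, 1 of the 7 others with 4 or more sites and 19 of the 53 with 3, and genes with every site higher were 1, 0 and 2. How often a gene has all sites in 1 direction depends on its number of sites, and these shares were not tested.

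The other genes were mixed. At Tgm2 the site 29208 bp upstream (chromosome 2, 158001258 to 158001414) read 1.39 with tagged RevErbalpha and 3.37 in control cells, a difference of -1.98 that rested on about 1.2 and 17.5 tags and was -0.73 with 10 added. Its neighbour 947 bp away differed by 0.22, in the other direction. At Lpp the genic site 69766 bp downstream (chromosome 16, 24517865 to 24518021) read 5.99 with tagged RevErbalpha and 4.53 in control cells, the largest rise of the 36 at 1.46, while the remaining Lpp sites ranged from -0.84 to 0.50. Reep3 had 4 of 6 sites lower, the most at 164012 bp downstream, with 6.35 against 7.34 and a difference of -0.99. Itpkb ranged from -0.51 to 0.40. At Cyth4, with high signal at every site, 7.84 to 9.44 with tagged RevErbalpha and 7.93 to 9.46 in control cells, the differences were small, from -0.32 to 0.04. The strongly bound Cyth4 site 5114 bp upstream read 7.84 and 7.93, a difference of -0.09.

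The macrophages labelled DKO and WT were then compared by GRO-seq at the same sites, where the table has 1 log2 value for each genotype. At the 14 genic sites and the 4 sites near the starts of Cyth4 and Emp1, polymerase on the site and polymerase on a transcript that runs through it cannot be told apart. Sites past the threshold were at Tgm2 and Lpp, and all 4 Plxna1 sites were higher in the library labelled DKO by less. The median difference was 0.03 over the 36 sites and 0.03 over all common sites, and 20 of the 36 were higher in the library labelled DKO (55.6% beside 52.5% of all), while 16 were lower (47.2% of all). It was higher by 1 or more at 2 of the 36, against 3.37% of all common sites, and lower by 1 or more at 1, against 2.20%. At a threshold of 0.5 the counts were 5 higher, beside 13.5% of all, and 4 lower, beside 10.7%. Both higher sites were at Tgm2. The site 20387 bp upstream (chromosome 2, 157992437 to 157992593) read 2.37 in the library labelled DKO and 0.60 in WT, a difference of 1.77, and the site 29208 bp upstream read 2.43 and 1.43, a difference of 1 that was 0.97 relative to the median of all sites. These are low values, and with 10 added before the logarithm the differences were 0.43 and 0.30. The remaining Tgm2 sites differed by -0.03 and -0.16. The lower site was at Lpp, 121845 bp upstream of the NM_001145954 start (chromosome 16, 24600018 to 24600174), with 1.80 in the library labelled DKO and 3.01 in WT. Its difference of -1.21 was -0.45 with 10 added. It also had the lowest mean binding of the 36, in which 1 shallow RevErbbeta run read 0.97 and the others 4.87 and 5.70.

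Plxna1 was the gene whose 4 sites were all higher in the library labelled DKO. They read 5.01, 4.44, 4.85 and 2.39 there, against 4.64, 4.05, 4.76 and 2.00 in WT, from the farthest downstream to the farthest upstream. The differences of 0.37, 0.40, 0.09 and 0.39 were each under 0.5 and all stayed positive relative to the median of all sites. Every site was higher in 1 of these 8 genes, in 0 of the 7 others with 4 or more sites and in 13 of the 53 with 3, shares that were not tested. At Enpp6 the sites classed as genic, which lie 55540 and 52560 bp upstream of its start, were higher, by 0.66 and 0.63. The intergenic ones, farther upstream, were lower, by -0.27 and -0.34. Reep3 had 5 of 6 sites higher, or 3 of 6 relative to the median of all sites, the most at 97866 bp downstream with 2.15 against 1.19. Itpkb had 3 of 4 lower, down to -0.77 at 86816 bp downstream. Cyth4 was lower at its upstream sites, by -0.36 and -0.61, and higher at the sites by its start, by 0.22 and 0.09. At Emp1, whose sites were all higher in tagged RevErbalpha cells, the differences between genotypes were 0.39, -0.59, 0.02 and -0.02, and the third turned lower relative to the median of all sites.

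Set side by side, 15 of the 36 sites (41.7%) were lower with tagged RevErbalpha and higher in the library labelled DKO, against 32.5% of all common sites. Genes with 3 sites had a similar share, 64 of 159 sites (40.3%), and the other genes with 4 or more had 8 of 34 (23.5%). Among the 15 were all 4 Plxna1 sites, 4 of Reep3, 2 each of Enpp6, Cyth4 and Tgm2, and 1 of Itpkb. With the medians of all common sites taken off both differences, 12 of the 36 remained, against 24.4% of all, with 3 at Plxna1 and 2 at Reep3. The cells and assays differ between these comparisons, the sizes at most of these sites were small, and these shares were not tested.

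**Figure D4:**
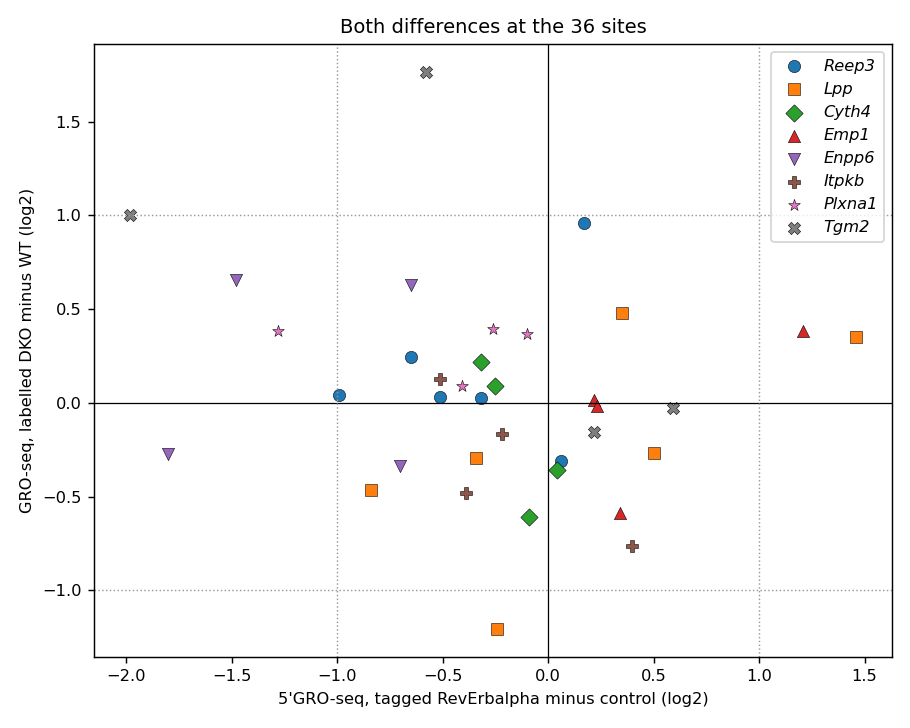
For each of the 36 sites, the 5'GRO-seq difference between tagged RevErbalpha and control RAW cells (horizontal, log2) against the GRO-seq difference between the libraries labelled DKO and WT (vertical, log2), with dotted lines at 1 and -1. The 4 Plxna1 sites lie in the upper left (3 of them once the series' medians are taken off). The Tgm2 site at -1.98 and 1 is the one that reaches both thresholds, on about 1.2 tags with tagged RevErbalpha. Its genotype difference is 0.97 once the series' median is taken off, and with 10 added before the logarithm its differences are -0.73 and 0.30.

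At the level of the genes none of the 8 passed the rule used, a log2 difference of at least 0.5 with the runs of the genotypes not overlapping, which 1.97% of the 1220 gene IDs in the table passed as higher in the library labelled DKO and 0.738% as lower. These values cover whole genes and are not per length, so they do not rank expression between genes. Plxna1 came closest. It read 11.53 and 11.70 in the DKO runs, against 11.29 and 11.23 in the WT runs. Both DKO runs lay above both WT runs, with a difference of 0.36 that was 0.27 to 0.44 with 1 run left out and 0.32 relative to the median of all genes. Runs lay apart in this way, with DKO on top, for 18.4% of all gene IDs and with DKO underneath for 10.0%; among the 9 gene IDs of the 8 genes these were 1 and 0. With a difference of at least 0.25 as well, Plxna1 still counted, as did 8.52% of all gene IDs, and 0 of the 9 counted as lower, beside 2.54%.

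Runs of the genotypes overlapped for the other 7 genes. Tgm2 read 7.69 and 8.15 in the DKO runs, against 8.16 and 8.02 in the WT runs, and its difference of -0.17 was 0.06 without DKO run 1 and -0.40 without DKO run 2. DKO run 1 was below all the other runs and DKO run 2 was between the WT runs. Enpp6 read 5.28 and 6.08 in the DKO runs, against 5.66 and 5.75 in the WT runs. These were the lowest gene values of the members, below those of Tgm2, the next lowest, with means of 7.92 in DKO and 8.09 in WT. The DKO runs of Enpp6 were 0.80 apart, so that its mean difference of -0.03 became 0.38 without DKO run 1 and -0.43 without DKO run 2. Cyth4 read 12.61 and 12.93 in the DKO runs, against 12.75 and 12.47 in the WT runs, a difference of 0.16. Itpkb read 12.28 and 12.46 in the DKO runs and 12.57 and 12.27 in the WT runs, a difference of -0.05. Emp1, at 11.02 and 11.17 in DKO runs and 11.06 and 11.09 in WT runs, and Reep3, at 10.99 and 11 in DKO runs and 10.97 and 11.02 in WT runs, differed by 0.02 and 0.00. Lpp has 2 gene IDs in the table, with differences of -0.09 for NM_001145954 and 0.02 for NM_178665, and the table pairs NM_001145954 with 5 of its sites.

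**Figure D5:**
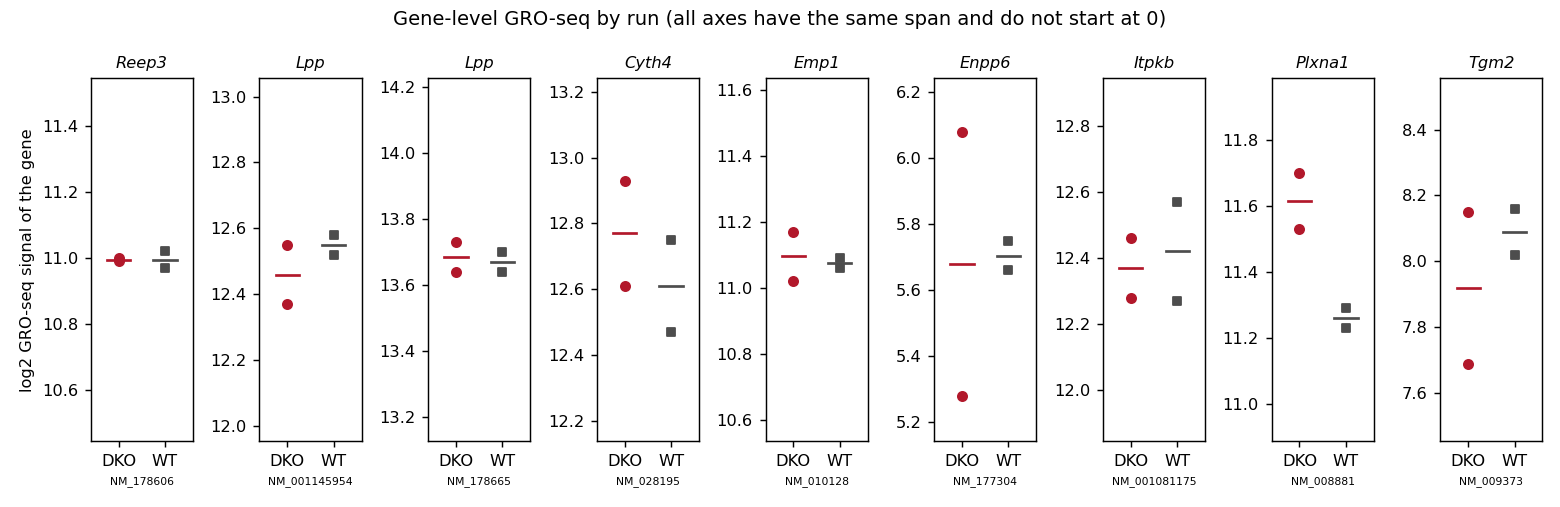
Gene-level GRO-seq signal (log2) in the 2 runs labelled DKO (circles, left) and the 2 WT runs (squares, right) for the 9 gene IDs, with bars at the means; all axes have the same span and do not start at 0. Only Plxna1 has both DKO runs above both WT runs.

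Relatives of the 8 genes were read from 7 lists of their families and pathways, which together name 138 genes. Of these 36 had a common site and so a gene value, under 38 gene IDs with the 8 members included. The gene rule was passed by 0 of them in either direction; 8 of the 38 had both DKO runs on top, beside 18.4% of all gene IDs, and 2 had both underneath, beside 10.0%. Their median difference was 0.05, against 0.04 over all gene IDs. Of the semaphorin, plexin and neuropilin list 3 of 24 were in the table, and beside Plxna1 these were Plxna2, another semaphorin receptor, with a difference of 0.12, and Tyrobp, an adaptor of myeloid receptors that can act with plexin-A1, with 0.21. Of the integrin and focal adhesion list, the longest, 12 of 34 were in the table, with differences from -0.17 to 0.19; Ptk2b, a focal adhesion kinase, had 0.19 for 1 of its 2 gene IDs, Fermt2, an integrin activator, 0.16 and Tgm2, which also acts as an integrin co-receptor, -0.17. The Arf list had 4 of 25, led by Arap1, a GTPase-activating protein for Arf proteins, with 0.31, then Cyth4 and Arf6 with -0.07. The inositol phosphate list had 7 of 31, with Pik3cg, a PI3-kinase catalytic subunit, at -0.11, and Pik3r1, a PI3-kinase regulatory subunit, and Pip5k1b, a phosphoinositide kinase, both at -0.10. Enpp4, a nucleotide hydrolase, had 0.45 in the list of pyrophosphatases and phosphodiesterases (6 of 12), with both DKO runs at 5.83 and 6.17 above both WT runs at 5.82 and 5.29, followed by Smpdl3a with -0.26 and Enpp5 with -0.22. Of the PMP22 family 3 of 6 were present, with Emp3 at 0.32 and Pmp22 at 0.14 beside Emp1, and of the REEP family Reep3 alone of 6.

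Genes with similar numbers of sites were set beside the 8, with no test. Median binding was 6.03 at the 36 sites, 5.66 at the 34 sites of the 7 other genes with 4 or more, and 5.78 at the 159 sites of genes with 3. Signal in tagged RevErbalpha cells was lower by 1 or more at 4 of the 36 sites (11.1%), at 7 of the 34 (20.6%) and at 42 of the 159 (26.4%). Higher GRO-seq by 1 or more in the library labelled DKO was found at 2 of 36, 0 of 34 and 9 of 159 sites. The 36 sites thus had the highest median binding of these groups and the smallest share lower by 1 or more with tagged RevErbalpha, a share that rests on 4 sites. By any amount, the shares lower were 63.9%, 73.5% and 67.9% in the same order, beside 62.6% of all common sites.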

How the data were processed

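The authors' summary table of 1544 common peaks was used, with 1 row per peak; the other 3 deposited lists hold the same peaks or their classes. The build is mm9 and the tools include HOMER and Bowtie 0.12.7, per the submitters' processing notes. The deposited values are log2 tags per 10000000 in 157 bp (ChIP-seq) and 500 bp (5'GRO-seq), per the file headers; GRO-seq values are log2 with no further scaling given. WT values at peaks end in 5 at the third decimal at 793 peaks, as a mean of 2 values would. Positions and distances to gene starts are the authors'. Of 15 samples 7 have values in the table; H3K9ac, H3K4me1 and PU.1 libraries were not analysed here. BirA values come from a column headed BirA-input, which could also be an input library. Tags were estimated from the log2 values with 1 taken off, and are approximate; intervals for them were not computed.

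Runs were averaged on the log2 scale with pandas 2.3.3; recomputed means and differences lay within 0.01 of the authors' columns. Runs are numbered columns read as belonging to 1 sample, and what separates them is not clear from the column names. A site counted at a difference of 1, a gene at 0.5 with runs not overlapping. All 8 genes and their sites are named; of the lists, genes past the rule and the 3 with the largest difference. The design had counted 35 sites, and the rule finds 36. Alternatives changed the threshold, the value added before the logarithm, the runs used and the centring. Members, lists and rules were chosen with earlier results of these data known. The RefSeq promoter windows used here (GRCm38.p6) matched 5 of the 8 genes; promoters of Reep3, Plxna1 and Tgm2 were not analysed here.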

Additional observations from a re-analysis of the deposited data

How the results depend on the processing

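No paired analysis was possible because each group is 1 sample and the labels carry no replicate numbers. Of 16 summary values that moved, most were counts of a few sites. With 10 added before the logarithm, sites lower with tagged RevErbalpha numbered 2 in place of 4, and sites past 1 between genotypes 0 higher in the library labelled DKO and 0 lower. At a difference of 0.5 these counts were 12 lower and 4 higher with tagged RevErbalpha, and 5 higher and 4 lower in the library labelled DKO. Above the lower quartile of signal they were 2 lower with tagged RevErbalpha and 0 higher in the library labelled DKO. With the median of all common sites taken off, chosen after seeing the data, the median 5'GRO-seq difference was -0.025 in place of -0.26, and 1 site in place of 2 was higher between genotypes. With the gene rule at 0.25, 1 member (Plxna1) passed, and 3 listed gene IDs with Plxna1 counted among them. With 1 run left out, 0 members and 0 to 2 listed gene IDs passed (Enpp4 and Arap1 without WT run 1, Smpdl3a without WT run 2, Enpp4 and Emp3 without DKO run 1), sites above the median binding numbered 23 to 26, sites with RevErbbeta above RevErbalpha 21 to 30, and their median difference was 0.05 to 0.56. The cause of these moves was not tested. The remaining 53 summary values kept within 1.5 times the count or within the spread between runs or the counting error. For some medians that allowance was too wide to decide whether they were stable. The median RevErbbeta minus RevErbalpha difference of 0.35 still counted as kept at 0.05, without RevErbalpha run 1. The median genotype difference at the sites, 0.03, counted as kept at -0.02 among sites above the lower quartile of signal. No conclusion on the stability of these medians is drawn. Depth limits the weak sites: the Plxna1 and Tgm2 sites with the largest falls held about 0.5 and 1.2 tags in tagged RevErbalpha cells.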
